A study of Mus musculus with 16 samples.

Results

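Deletion of HuR in fat cells was compared with littermate controls in epididymal white adipose tissue (eWAT), a visceral depot that lies against the testis and epididymis. The comparison takes 6 of the 16 RNA sequencing libraries of the study, 3 labelled HuR-FKO and 3 labelled Ctrl, chosen by their tissue and genotype labels. HuR-FKO stands for AdipoQ-Cre;HuRf/f mice, in which Cre recombinase under the adiponectin promoter removes a floxed part of Elavl1, the gene encoding HuR. Ctrl stands for HuRf/f littermates without Cre, so both groups carry the floxed alleles, and all mice were 12 weeks old. RNA from 3 mice was pooled for each library, so each value is that of a pool and the p values measure the spread between pools. Because Cre is driven by a gene of mature fat cells, the vascular, immune and stromal cells of the depot keep HuR. The depot was sequenced whole, so that fewer cells of a type and less RNA per cell cannot be told apart. Inguinal fat (iWAT, 6 libraries) and brown fat (BAT, 4 libraries) of the same genotypes serve here to show where epididymal fat differed.

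HuR is an RNA-binding protein of the ELAV family that is present in most cells. It attaches to AU-rich stretches, mainly in the 3′ untranslated regions of messenger RNAs, and is best known for protecting them from decay and for favouring their translation, often in competition with proteins that speed decay. In fat it has been studied as a regulator of how precursor cells become adipocytes and of how adipocytes store lipid.

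The deposited values were FPKM (mapped fragments per gene, scaled to transcript length and to the library's mapped total). Of 21110 protein-coding genes in the table, 12329 had a mean above 1 FPKM in either epididymal group and were tested on log2(FPKM + 1) with limma, a linear model that shares information on variance across genes. Differences are given as log2 fold changes of FPKM + 1, HuR-FKO minus Ctrl, which understate the change of genes near 1 FPKM. Steps between low values put the depth at roughly 9.4 to 11.5 M (mega) fragments in HuR-FKO libraries and 9.4 to 13.8 M in Ctrl libraries, an uncertain estimate, since 56.5% to 67.2% of the low values used came out whole with a tolerance of 0.05 (log2). The search for the depth covered a preset range only, and multiples or fractions of the true depth can score as well, so a depth outside that range is not excluded. From 11948 to 12303 protein-coding genes exceeded 1 FPKM in a library. The first 3 principal components held 30.5%, 23.4% and 20.6% of the variance, so no single axis dominated these libraries. The depot label was set beside mesothelial markers, genes of the cell layer that covers visceral fat. Of 15 listed, 13 passed the FPKM minimum in eWAT. The sum over 14 in the table was 205 to 288 FPKM in eWAT HuR-FKO libraries and 233 to 314 FPKM in eWAT Ctrl libraries. Of the 13, 3 passed the minimum in iWAT too. Only members that passed in eWAT were looked up there, so the iWAT count could not be the larger one.

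The targeted gene itself showed no lower level under the HuR-FKO label. Elavl1 was at 13.9, 15.4 and 13.3 FPKM in HuR-FKO libraries, against 13.6, 13.8 and 12.2 FPKM in Ctrl libraries. The groups overlapped, and the log2 fold change was 0.10 with a 95% interval of -0.14 to 0.33 (limma, adjusted p = 0.883). A value for the whole gene counts reads from undeleted exons and from cells without Cre as well, and which of these contributed was not tested. Whether the floxed part was lost in these pools was not tested. The paper reports loss of HuR in eWAT, iWAT and BAT of its knockout animals, measured as RNA by PCR and as protein by western blot. The labels are used as given, and every difference below is one between libraries labelled HuR-FKO and libraries labelled Ctrl. Of the 21 tested genes for other proteins that bind AU-rich elements and for Elavl1 itself, 14 were higher, 7 lower, and the median log2 fold change was 0.02 against -0.01 over all genes tested. Only Igf2bp2, an RNA-binding protein of growth regulation, had an unadjusted p under 0.05 among them. It was at 3.02, 1.70 and 1.796 FPKM in HuR-FKO libraries, against 5.79, 3.84 and 2.95 FPKM in Ctrl libraries, and the groups overlapped.

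Genes close to Adipoq, the native gene whose promoter was used to drive Cre, were also examined, after the values had been seen. The Cre mice were transgenic, and the place of the transgene is not given in the sources used here. The adiponectin gene Adipoq on chromosome 16 had 3 tested neighbours within 200 kb, and St6gal1, a sialyltransferase at 66.7 kb, was at 4.80, 6.04 and 6.11 FPKM in HuR-FKO libraries, against 6.98, 7.94 and 5.22 FPKM in Ctrl libraries, with overlap (log2 fold change -0.20 in eWAT, 0.11 in iWAT and 0.09 in BAT). Eif4a2, an RNA helicase of translation initiation at 32.4 kb from Adipoq, was at 275, 261 and 292 FPKM in HuR-FKO libraries, against 156, 211 and 211 FPKM in Ctrl libraries. All 3 HuR-FKO libraries were above all 3 Ctrl libraries, and the log2 fold change was 0.53 in eWAT (unadjusted p = 0.00460), 0.45 in iWAT and 0.24 in BAT. Rfc4, a subunit of the clamp loader of DNA replication at 18.8 kb, was at 6.16, 7.96 and 6.89 FPKM in HuR-FKO libraries, against 4.18, 2.82 and 3.35 FPKM in Ctrl libraries, with log2 fold changes of 0.85 in eWAT (unadjusted p = 0.000454), 0.53 in iWAT and 0.44 in BAT. Its groups did not overlap either. Adipoq itself was at 2621, 2668 and 2896 FPKM in HuR-FKO libraries, against 2153, 2706 and 2508 FPKM in Ctrl libraries, and there the groups overlapped. Neither neighbour passed limma's test over all genes, with adjusted p = 0.403 for Eif4a2 and 0.165 for Rfc4.

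Few genes passed the test over the whole table. With a threshold of 0.05 on limma's adjusted p, 3 genes rose in the HuR-FKO libraries and 2 fell, 0.0243% and 0.0162% of the genes tested. This count of 5 was 1 without Ctrl replicate 2, 2 without Ctrl replicate 1 or Ctrl replicate 3, 3 without HuR-FKO replicate 2 and 28 in a fit over all 16 libraries. Unadjusted p values under 0.05 were found for 472 genes that were higher (3.83%) and 471 that were lower (3.82%), or 7.65% in either direction. The groups did not overlap for 6.66% of genes in the higher direction and for 6.49% in the lower. Log2 fold changes were positive for 48.1% and negative for 51.9% of genes. A change of more than 1 on the log2 scale was estimated for 44 genes, 36 higher and 8 lower, and 12 of these 44 were listed at 0 in at least 1 library. The widest estimates belonged to predicted genes listed at 0 in several libraries and high in others of the same group, such as Gm17571, and are not read further. Genes detected throughout with an estimate of this size, picked after their values were seen, included Clstn3, a calsyntenin of which brown fat makes a form that promotes sympathetic innervation. Clstn3 was at 39.3, 26.5 and 49.8 FPKM in HuR-FKO libraries, against 21.7, 10.6 and 7.79 FPKM in Ctrl libraries, without overlap (log2 fold change 1.53, adjusted p = 0.309), and had log2 fold changes of 1.49 in iWAT and 0.23 in BAT. Bcl6, a transcriptional repressor known from germinal centre B cells and also active in adipocytes, was at 23.9, 14.6 and 7.56 FPKM in HuR-FKO libraries, against 44.1, 33.7 and 32.6 FPKM in Ctrl libraries. Its HuR-FKO pools were all below its Ctrl pools but spread widely among themselves (log2 fold change -1.33, adjusted p = 0.403, with -0.97 in iWAT and -0.54 in BAT).

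**Figure D1:**
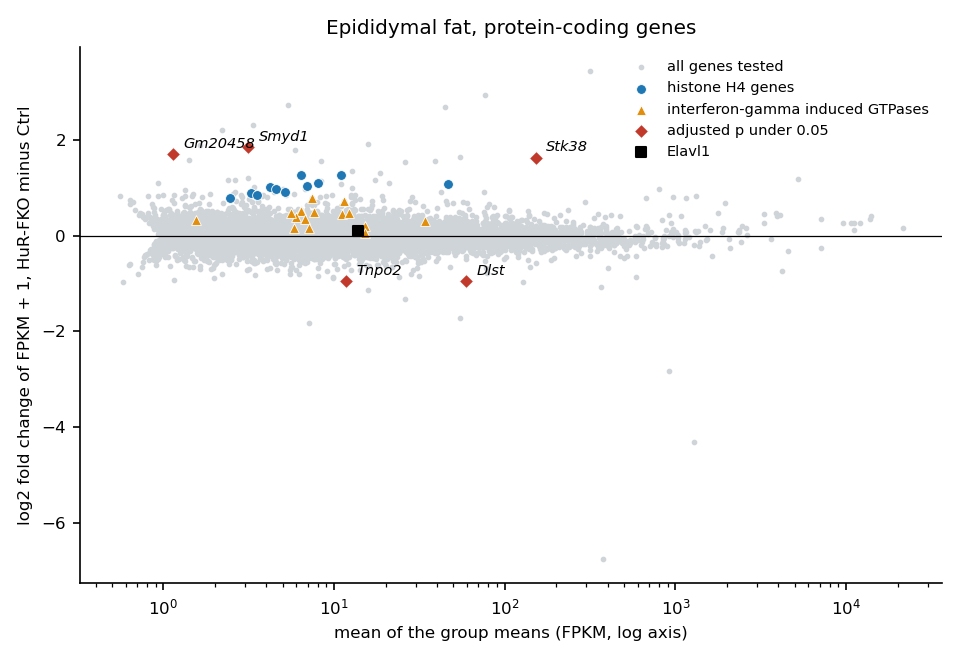
Log2 fold change of FPKM + 1 (HuR-FKO minus Ctrl, vertical axis) against the mean of the group means in FPKM (horizontal axis, log scale) for the 12329 protein-coding genes tested in eWAT, each point a gene. Stk38, Smyd1 and Gm20458 lie above and Dlst and Tnpo2 below the other marked genes, the 11 histone H4 genes lie between 0.79 and 1.27, and Elavl1 lies at 0.10.

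Stk38 showed the smallest p value of the depot. It encodes NDR1, a serine/threonine kinase related to the LATS kinases of the Hippo pathway. Stk38 was at 237, 228 and 224 FPKM in HuR-FKO libraries, against 73.7, 66.4 and 81.5 FPKM in Ctrl libraries. Every HuR-FKO library was far above every Ctrl library, and the spread within each group was narrow. It rose by a log2 fold change of 1.63 (95% interval 1.39 to 1.86, adjusted p = 0.00266 from limma), and the call was kept without any 1 of the 6 libraries (adjusted p 0.00801 to 0.0224). The gene lies on chromosome 17 from 28970880 to 29007995 of mm10 (GENCODE vM21), where its model overlaps that of the small RNA gene Gm23887 on the same strand. In iWAT Stk38 was at 175, 169 and 191 FPKM in HuR-FKO libraries, against 75.1, 88.8 and 90.1 FPKM in Ctrl libraries. In BAT it was at 108 and 111 FPKM in HuR-FKO libraries, against 42.7 and 44.7 FPKM in Ctrl libraries. The libraries separated in all 3 depots, with log2 fold changes of 1.07 in iWAT and 1.30 in BAT, and the effect in eWAT exceeded that in iWAT by 0.56 (interaction, unadjusted p = 0.00204, not past the threshold over all genes). Of 21 genes of the NDR and LATS kinase pathway, 10 were higher and 11 lower. Besides Stk38, only Tead1, a transcription factor at the end of the Hippo pathway, had an unadjusted p under 0.05, at 13.1, 11.6 and 12.3 FPKM in HuR-FKO libraries, against 19.98, 18.5 and 20.5 FPKM in Ctrl libraries. All its HuR-FKO libraries were below its Ctrl libraries (log2 fold change -0.63, adjusted p = 0.144).

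Dlst and Tnpo2 fell, each to about the same level in the 3 HuR-FKO pools. Dlst encodes the succinyltransferase (E2) component of oxoglutarate dehydrogenase in the tricarboxylic acid cycle, and its transcript is among the HuR-bound mRNAs listed by the study. Dlst was at 40.9, 40.6 and 38.8 FPKM in HuR-FKO libraries, against 85.6, 76.0 and 73.2 FPKM in Ctrl libraries. The groups were far apart, with a log2 fold change of -0.94 (95% interval -1.16 to -0.73, adjusted p = 0.0244 from limma). In BAT, where the gene was more abundant, it was at 155 and 164 FPKM in HuR-FKO libraries, against 328 and 377 FPKM in Ctrl libraries, and in iWAT the log2 fold change was -0.62. The gene lies on chromosome 12 from 85110833 to 85134845 of mm10 and overlaps no other gene model. Tnpo2, transportin 2, carries proteins into the nucleus, HuR among its known cargoes. It was at 8.32, 7.75 and 6.98 FPKM in HuR-FKO libraries, against 16.5, 14.8 and 16.1 FPKM in Ctrl libraries, a log2 fold change of -0.95 (95% interval -1.20 to -0.71, adjusted p = 0.0404). Its log2 fold change was -0.44 in iWAT and -1.14 in BAT, where it was at 5.40 and 4.70 FPKM in HuR-FKO libraries, against 12.7 and 12.0 FPKM in Ctrl libraries. Tnpo2 lies on chromosome 8 from 85036915 to 85057583, and its model overlaps Gm25506 on the same strand and A230103J11Rik on the opposite strand. It was the only gene with an unadjusted p under 0.05 among 20 tested nuclear import receptors, of which 9 were higher and 11 lower. Neither call survived the loss of any 1 library: without each of the 6 in turn the adjusted p was 0.0594 to 0.196 for Dlst and 0.0876 to 0.229 for Tnpo2, while the log2 fold changes stayed between -0.99 and -0.88 and between -1.01 and -0.89.

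Smyd1 rose in epididymal fat and not in the other depots. It encodes a histone methyltransferase needed for the sarcomeres of heart and skeletal muscle. Smyd1 was at 5.65, 4.12 and 6.76 FPKM in HuR-FKO libraries, against 0.840, 0.930 and 0.578 FPKM in Ctrl libraries, so that the lowest HuR-FKO pool was more than 3 FPKM above the highest Ctrl pool. The log2 fold change was 1.85 (95% interval 1.44 to 2.27, adjusted p = 0.0244 from limma). In iWAT it was at 0.963, 0.725 and 2.50 FPKM in HuR-FKO libraries, against 1.15, 1.07 and 5.29 FPKM in Ctrl libraries, with overlapping groups. In BAT it was at 4.09 and 4.48 FPKM in HuR-FKO libraries, against 9.28 and 6.08 FPKM in Ctrl libraries, the opposite order. The effect in eWAT exceeded that in iWAT by 2.27 (interaction, unadjusted p = 0.00127), which did not pass over all genes. Of 8 tested skeletal muscle markers, Smyd1 included, 3 were higher and 5 lower (median -0.17). Tnni2, a troponin of fast muscle fibres and the other marker at an unadjusted p under 0.05, was at 1.56, 1.45 and 1.02 FPKM in HuR-FKO libraries, against 0.408, 0.473 and 0.892 FPKM in Ctrl libraries, higher without overlap (log2 fold change 0.56, adjusted p = 0.521). Both Smyd1 and Tnni2 passed the FPKM minimum through the HuR-FKO group only. The summed level of all 21 muscle markers in the table was 74.6 to 82.8 FPKM in HuR-FKO libraries and 71.7 to 94.4 FPKM in Ctrl libraries. The call of Smyd1 was kept only without HuR-FKO replicate 2 (adjusted p = 0.0275) and otherwise gave 0.0536 to 0.128. Smyd1 lies on chromosome 6 from 71213940 to 71322233 of mm10, and the models of Gm1070 and Krcc1 overlap it on the opposite strand.

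The remaining call was Gm20458, a predicted gene on chromosome 2 from 164460967 to 164490760. It was at 2.13, 2.43 and 2.26 FPKM in HuR-FKO libraries and at most 0.00760 FPKM in Ctrl libraries. Its model overlaps Dbndd2 and Sys1 on the same strand, so the assignment of its reads is uncertain. Dbndd2 itself was at 16.8, 24.5 and 16.1 FPKM in HuR-FKO libraries, against 26.5, 23.4 and 28.6 FPKM in Ctrl libraries, with overlapping groups. The fitted log2 fold change of Gm20458 was 1.70 (adjusted p = 0.0113 from limma), a value that depends on the pseudocount, and leaving out any 1 Ctrl library or HuR-FKO replicate 2 put the adjusted p at 0.0542 to 0.0987.

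The genes of smallest p in eWAT mostly had the same sign in inguinal fat. Among the 15 higher and 15 lower genes of smallest p with a mean of at least 5 FPKM, groups that did not overlap and a symbol other than a Gm number or Rik clone, 29 of 30 had the same sign in iWAT, 22 of them at an unadjusted p under 0.05. In BAT 22 of 28 had the same sign, 14 at an unadjusted p under 0.05. The depots share no library, but whether they came from the same mice is not stated. Of 10592 genes tested in all 3 depots, 780 had an unadjusted p under 0.05 in eWAT. In iWAT 234 of these (30.0% of the eWAT genes and 24.1% of the iWAT genes) had the same sign and an unadjusted p under 0.05, and 6 the opposite sign, where 9.15% of all 10592 genes were at that p in iWAT in either direction. In BAT 116 had the same sign (14.9%) and 23 the opposite sign, where the share of all genes was 8.53%. Same-sign differences at an unadjusted p under 0.05 in all 3 depots were found for 59 genes, 23 higher and 36 lower.

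With the limit at an unadjusted p under 0.01 in each depot, 14 genes were left, 6 higher and 8 lower. Besides Stk38, Dlst and Tnpo2 they included Mcur1, a regulator of calcium uptake into mitochondria and another HuR-bound mRNA. Mcur1 was at 21.5, 22.7 and 20.8 FPKM in HuR-FKO libraries, against 42.2, 32.6 and 34.6 FPKM in Ctrl libraries, with log2 fold changes of -0.72, -0.66 and -0.73 in eWAT, iWAT and BAT. All Mcur1 values of HuR-FKO pools in the 3 depots were below all values of Ctrl pools. Fmo4, a flavin-containing monooxygenase, was at 2.55, 2.25 and 3.32 FPKM in HuR-FKO libraries, against 0.955, 1.34 and 0.792 FPKM in Ctrl libraries, and its log2 fold changes were 0.87, 0.83 and 1.02. Bckdhb, a subunit of the dehydrogenase that breaks down branched-chain amino acids, was higher in all 3 depots, at 0.41, 0.59 and 0.46. The lower genes included Pnpla3, a lipid droplet protein that is induced on refeeding, at 119, 118 and 88.6 FPKM in HuR-FKO libraries, against 206, 149.9 and 159.7 FPKM in Ctrl libraries. Its log2 fold changes were -0.66 in eWAT, -0.92 in iWAT and -1.48 in BAT, and its eWAT groups did not overlap. Kdsr, an enzyme of ceramide synthesis (-0.38 in eWAT), Mrps6, a mitochondrial ribosomal protein (-0.77), and Aamdc (-0.48) were lower in each depot as well. These shared genes were chosen after their values were seen, and no member beyond Stk38, Dlst and Tnpo2 passed the test over all genes in eWAT. Hsd11b1, which regenerates active glucocorticoid within fat cells, was at 68.4, 86.6 and 107 FPKM in HuR-FKO libraries, against 179.5, 178 and 148 FPKM in Ctrl libraries, far apart between groups (log2 fold change -0.96, adjusted p = 0.154), and was lower in iWAT (-0.62) and BAT (-1.57) too.

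**Figure D2:**
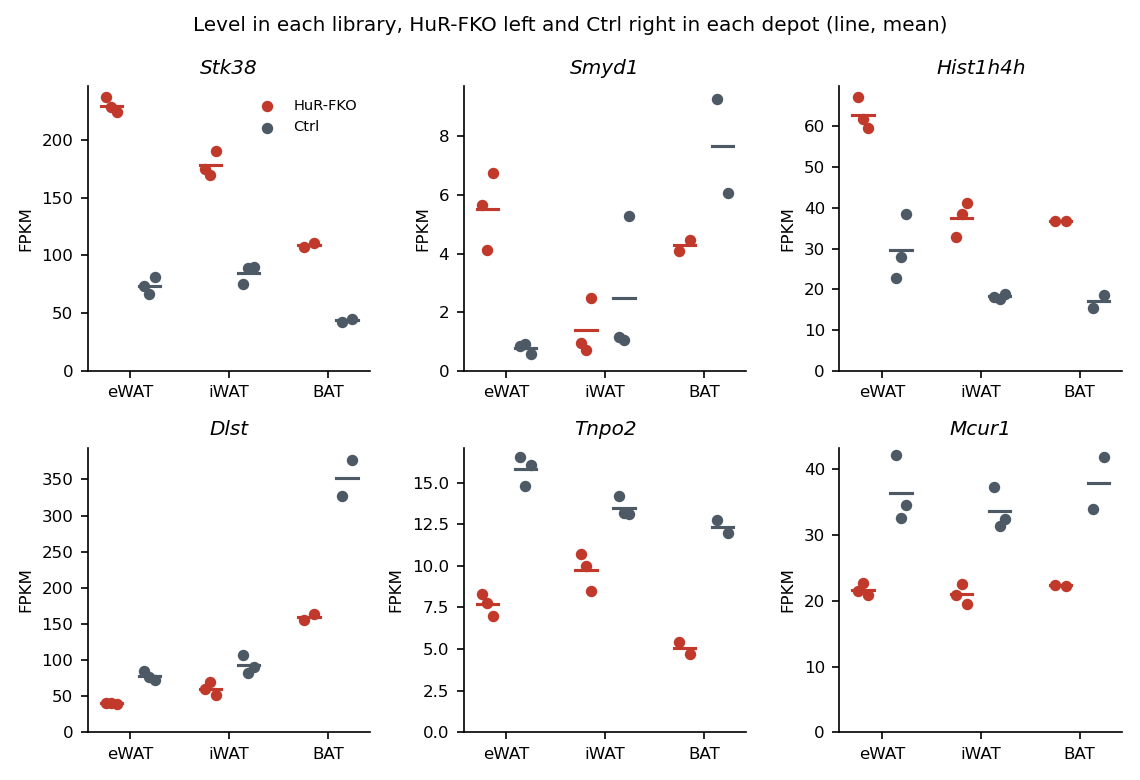
FPKM (vertical axes, from 0) of 6 genes in every library, each point a pool of 3 mice and each line a group mean, with HuR-FKO (red) left of Ctrl (grey) in eWAT, iWAT and BAT. Stk38 and Hist1h4h were above and Dlst, Tnpo2 and Mcur1 below Ctrl in every depot without overlap, while Smyd1 was above Ctrl in eWAT only.

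Histone H4 genes were higher as a class. Replication-dependent histone genes sit in clusters, are transcribed in S phase and give messenger RNAs that mostly end in a stem loop without a poly(A) tail. The class was examined because 6 of the 15 higher genes of smallest p under the rule above encode histone H4, so it was chosen after its values were seen. Of 13 H4 genes in the table, 11, all in the chromosome 13 cluster, were expressed above the minimum, and the other 2, Hist2h4 and Hist4h4, had group means of at most 0.329 FPKM. All 11 had a positive log2 fold change and an unadjusted p under 0.05 (3.83% of all genes), and 10 had groups that did not overlap (6.66% of all genes). Their median log2 fold change was 1.02, with a range of 0.79 to 1.27, and without any 1 library the median was 0.91 to 1.18. Summed over the class, the H4 genes were at 144, 151 and 129 FPKM in HuR-FKO libraries, against 48.7, 57.5 and 82.9 FPKM in Ctrl libraries. Ctrl replicate 3 was the highest of its group and still below every HuR-FKO pool.

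The most abundant member, Hist1h4h, was at 67.3, 61.7 and 59.7 FPKM in HuR-FKO libraries, against 22.7, 27.9 and 38.4 FPKM in Ctrl libraries. Its log2 fold change was 1.09 (95% interval 0.69 to 1.49, adjusted p = 0.144 from limma), and the groups stood apart. Hist1h4k was at 15.5, 17.2 and 14.8 FPKM in HuR-FKO libraries, against 5.15, 4.97 and 8.08 FPKM in Ctrl libraries, a log2 fold change of 1.27 (adjusted p = 0.0991). Hist1h4c was at 9.39, 10.7 and 7.99 FPKM in HuR-FKO libraries, against 2.75, 2.81 and 4.49 FPKM in Ctrl libraries. Because these genes are nearly identical in sequence, the counting could move reads between them, and the value of a single gene is less certain than the sum. In iWAT the class summed to 84.8, 86.9 and 97.2 FPKM in HuR-FKO libraries, against 43.8, 50.8 and 48.2 FPKM in Ctrl libraries, and all 11 genes were higher there at an unadjusted p under 0.05. In BAT, where 5 of them were expressed, the sums of the class were 48.7 and 49.8 FPKM in HuR-FKO libraries, against 25.3 and 27.5 FPKM in Ctrl libraries. The other histone classes had smaller medians. Of 16 H2A genes 14 were higher, 8 of them at an unadjusted p under 0.05 (3.83% of all genes), with a median of 0.28. All 14 H2B genes were higher, with a median of 0.16 and none at that p. Of 3 H3 genes 1 was higher and 2 were lower, and of 2 H1 genes 1 was higher and 1 lower. Of 22 cell cycle and replication genes, 10 were higher and 12 lower (median -0.01). Cks1b, a small subunit of cyclin-dependent kinases outside that count, was at 37.8, 39.1 and 34.8 FPKM in HuR-FKO libraries, against 25.3, 20.5 and 21.4 FPKM in Ctrl libraries (log2 fold change 0.71, adjusted p = 0.144).

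**Figure D3:**
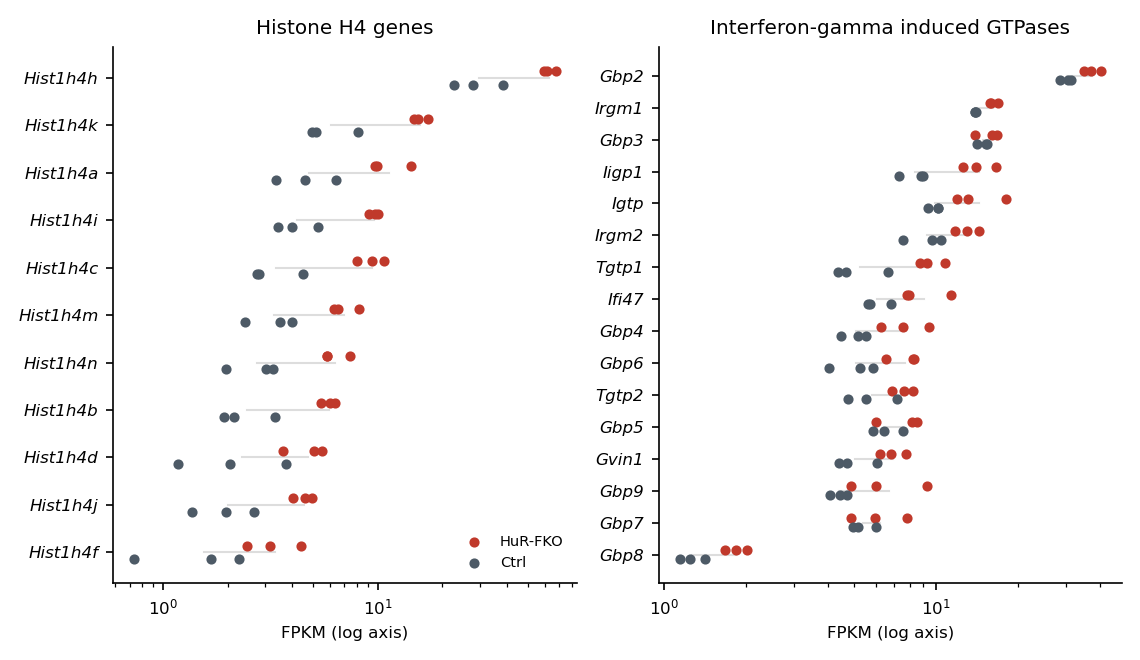
FPKM (horizontal axes, log scale) of the 11 tested histone H4 genes (left) and the 16 tested interferon-gamma induced GTPase genes (right) in the 3 HuR-FKO (red, upper row of each gene) and 3 Ctrl (grey, lower row) eWAT libraries, with a line joining the group means. The HuR-FKO points lie right of the Ctrl points without overlap for 10 of 11 H4 genes and 12 of 16 GTPase genes.

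The mRNAs that the study had found bound to HuR in eWAT went both ways. Of the 197 tested among 200 listed, 85 were higher, 112 were lower, and the median log2 fold change was -0.02, against -0.01 over all genes. The share higher was 43.1%, against 48.1% of all genes. The paper compared the whole distributions of targets and other genes, and reports that targets tended to be lower in the knockout. That comparison was not repeated here. Of the 197, 11 higher and 12 lower members had an unadjusted p under 0.05, or 5.58% and 6.09% of the members, against 3.83% and 3.82% of all genes. Without HuR-FKO replicate 2 these counts were 6 and 18, without Ctrl replicate 2 they were 7 and 12, and without HuR-FKO replicate 3 they were 7 and 9, with 115 higher, 82 lower and a median of 0.02. Dlst and Mcur1 had the smallest p values of the lower members. Arhgap24, a GTPase-activating protein of the Rac branch, was at 16.6, 14.4 and 15.6 FPKM in HuR-FKO libraries, against 26.1, 21.9 and 21.6 FPKM in Ctrl libraries, with no overlap. Synpo2, an actin-associated protein of muscle, was at 9.37, 6.30 and 4.42 FPKM in HuR-FKO libraries, against 11.7, 11.3 and 11.2 FPKM in Ctrl libraries, also without overlap. Ifrd1, a transcriptional coregulator, was at 163, 170.4 and 127 FPKM in HuR-FKO libraries, against 182, 236 and 239.5 FPKM in Ctrl libraries. The higher members included Gsta4, which detoxifies the lipid peroxidation product 4-hydroxynonenal in fat, at 83.0, 109.7 and 104 FPKM in HuR-FKO libraries, against 47.0, 42.5 and 69.7 FPKM in Ctrl libraries. All its HuR-FKO pools were above its Ctrl pools, and it was higher in iWAT as well (0.91 in eWAT, 0.84 in iWAT). Alas2, the heme synthesis enzyme of red cell precursors, was at 17.2, 14.6 and 20.03 FPKM in HuR-FKO libraries, against 6.41, 8.38 and 9.88 FPKM in Ctrl libraries. It is also on the list of red cell genes, of which all 7 tested were higher in eWAT. The part of blood in its difference was not tested. Ier3ip1, a protein of the secretory pathway, was at 66.8, 74.4 and 80.2 FPKM in HuR-FKO libraries, against 45.4, 51.3 and 39.9 FPKM in Ctrl libraries, with no overlap.

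Insig1, a listed HuR target that holds the SREBP precursors in the endoplasmic reticulum, was at 72.6, 70.7 and 70.0 FPKM in HuR-FKO libraries, against 108, 74.1 and 74.3 FPKM in Ctrl libraries. Ctrl replicate 1 was the highest library, the other 2 Ctrl libraries lay within 5 FPKM of every HuR-FKO pool, and the groups did not overlap (log2 fold change -0.24, 95% interval -0.58 to 0.10, adjusted p = 0.772). Of 12 genes of the SREBP machinery 4 were higher and 8 lower. Srebf1, the SREBP gene of fatty acid synthesis, was at 134, 113 and 89.3 FPKM in HuR-FKO libraries, against 219, 141 and 128 FPKM in Ctrl libraries, with overlapping groups. Hmgcs1, an early enzyme of cholesterol synthesis, was at 86.4, 46.8 and 39.7 FPKM in HuR-FKO libraries, against 41.8, 31.7 and 29.8 FPKM in Ctrl libraries, the other direction, again with overlap. Of 21 cholesterol synthesis genes 9 were higher and 12 lower (median -0.05), and of 18 genes of fatty acid synthesis and desaturation 11 were higher and 7 lower (median 0.07).

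Interferon-gamma induced GTPases were higher together. These proteins, the immunity-related GTPases (Irgm, Igtp, Iigp, Tgtp) and the guanylate-binding proteins (Gbp), are made by many cell types on exposure to interferon and gather on membranes around pathogens. Their promoters are known for a pair of elements, an interferon-stimulated response element and a gamma-activated site. The promoters of 4 members are shown because the members moved together, from RefSeq (GRCm38.p6), 250 bases before to 50 bases after the annotated start, 5′ to 3′ on the gene's strand. Capitals mark matches on either strand to a pair of GAAA with any 2 bases between them, a core of the response element, and to TTCNNNGAA, the gamma-activated site.
Tgtp1 (chr11:48992197-48992496, minus strand): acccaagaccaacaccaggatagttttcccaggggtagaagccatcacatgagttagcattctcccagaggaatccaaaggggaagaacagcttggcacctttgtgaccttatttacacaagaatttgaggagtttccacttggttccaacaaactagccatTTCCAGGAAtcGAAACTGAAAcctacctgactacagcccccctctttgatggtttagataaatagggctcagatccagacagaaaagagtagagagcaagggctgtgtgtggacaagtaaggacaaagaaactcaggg
Irgm2 (chr11:58214727-58215026, plus strand): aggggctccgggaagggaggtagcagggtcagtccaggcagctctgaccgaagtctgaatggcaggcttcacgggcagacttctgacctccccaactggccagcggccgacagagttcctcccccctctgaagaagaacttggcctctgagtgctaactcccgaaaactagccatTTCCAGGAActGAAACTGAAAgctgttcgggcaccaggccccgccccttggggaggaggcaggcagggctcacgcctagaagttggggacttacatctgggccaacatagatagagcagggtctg
Igtp (chr11:58199306-58199605, plus strand): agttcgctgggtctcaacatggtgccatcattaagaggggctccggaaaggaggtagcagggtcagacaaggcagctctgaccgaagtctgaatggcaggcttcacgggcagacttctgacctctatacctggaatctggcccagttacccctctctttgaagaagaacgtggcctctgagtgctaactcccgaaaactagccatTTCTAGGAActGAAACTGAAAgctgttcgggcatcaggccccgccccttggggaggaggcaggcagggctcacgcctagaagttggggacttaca
Gbp2 (chr3:142620413-142620712, plus strand): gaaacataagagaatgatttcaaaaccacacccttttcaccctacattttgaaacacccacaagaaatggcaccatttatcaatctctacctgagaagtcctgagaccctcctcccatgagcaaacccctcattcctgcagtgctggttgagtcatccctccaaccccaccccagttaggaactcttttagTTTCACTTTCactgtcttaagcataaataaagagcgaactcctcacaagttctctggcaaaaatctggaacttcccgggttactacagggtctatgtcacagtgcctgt
Of the 16 tested members 11 had a promoter in the table, and 10 of these 11 (90.9%) held the first motif, 6 (54.5%) the second and 6 both. The windows shown all hold the first motif, while that of Ifi47, of smaller p than Igtp and not shown, holds neither. Of all 27025 genes with such a window 3.99% held the first, 9.55% the second and 0.614% both. In Tgtp1 the motifs are separated by 2 bases. A match describes the letters and is not evidence of binding.

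All 16 tested members had a positive log2 fold change in eWAT, 12 with groups that did not overlap (6.66% of all genes) and 11 at an unadjusted p under 0.05 (3.83% of all genes). Their median was 0.43, against 0.21 in iWAT and 0.67 in BAT. Without any 1 library all 16 stayed positive, with medians of 0.33 to 0.49 and 8 to 11 members at that p (6 in a fit over all 16 libraries), and no member passed over all genes. Iigp1 was at 14.02, 16.6 and 12.6 FPKM in HuR-FKO libraries, against 8.93, 8.84 and 7.30 FPKM in Ctrl libraries (log2 fold change 0.72, 95% interval 0.41 to 1.02, adjusted p = 0.181 from limma). Tgtp1 was at 9.23, 10.8 and 8.73 FPKM in HuR-FKO libraries, against 6.69, 4.66 and 4.38 FPKM in Ctrl libraries, with a log2 fold change of 0.78. HuR-FKO pools were above Ctrl pools in both. Irgm2 was at 13.0, 14.4 and 11.7 FPKM in HuR-FKO libraries, against 10.5, 9.71 and 7.58 FPKM in Ctrl libraries. Igtp was at 13.1, 18.1 and 11.9 FPKM in HuR-FKO libraries, against 10.2, 10.2 and 9.33 FPKM in Ctrl libraries, and HuR-FKO replicate 2 was the highest library in both. Gbp2, the most abundant member, was at 37.3, 40.5 and 35.1 FPKM in HuR-FKO libraries, against 31.3, 28.7 and 30.7 FPKM in Ctrl libraries, a smaller difference of 0.31 without overlap.

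Other interferon-stimulated genes were higher by less. Of 34 tested, 31 were higher and 3 lower (median 0.18, with 0.00 in iWAT and 0.31 in BAT). There were 9 higher and no lower members at an unadjusted p under 0.05, against 3.83% and 3.82% of all genes. The 9 became a count of 5 without Ctrl replicate 1 or Ctrl replicate 2, of 4 without HuR-FKO replicate 2 and of 3 in a fit over all 16 libraries. Isg15, a ubiquitin-like modifier, was at 12.0, 13.6 and 10.8 FPKM in HuR-FKO libraries, against 7.92, 9.07 and 10.03 FPKM in Ctrl libraries. Trim25, a ubiquitin ligase of RNA sensing, was at 12.6, 12.8 and 12.9 FPKM in HuR-FKO libraries, against 8.65, 10.95 and 10.4 FPKM in Ctrl libraries. Ifi27l2a, an interferon-inducible gene outside the list that was picked after its value was seen, was among the most abundant transcripts of the depot. It was at 6573, 7902 and 7111 FPKM in HuR-FKO libraries, against 2323, 3806 and 3602 FPKM in Ctrl libraries, without overlap and with a log2 fold change of 1.18 in eWAT (adjusted p = 0.181), 0.88 in iWAT and -0.30 in BAT. Of 24 antigen presentation genes 17 were higher and 7 lower (median 0.12), none of them at an unadjusted p under 0.05 in limma. Among 25 chemokines and chemokine receptors 13 were higher and 12 lower, and all 5 at an unadjusted p under 0.05 were higher (3.83% of all genes were, and the 5 became 3 without Ctrl replicate 3 or HuR-FKO replicate 1). Cxcl9 and Cxcl10, ligands of the chemokine receptor Cxcr3 of T cells, were at 17.0, 13.5 and 16.8 against 8.75, 11.8 and 8.24 FPKM and at 3.95, 5.87 and 4.35 against 2.76, 2.09 and 2.53 FPKM (HuR-FKO against Ctrl). Their groups did not overlap. Cxcl9 was higher in iWAT (0.90) and BAT (0.97) as well, and Cxcl10 was at 0.02 and 0.10 there.

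Genes that mark T cells and natural killer cells were higher beside the interferon genes, while B cell markers were split. All 8 tested markers of natural killer and cytotoxic cells were higher, 4 at an unadjusted p under 0.05 (3.83% of all genes), with a median of 0.47, and all 13 listed summed to 27.4 to 42.9 FPKM in HuR-FKO libraries and 18.3 to 22.9 FPKM in Ctrl libraries. Nkg7, a granule protein of cytotoxic cells, was at 2.76, 4.63 and 4.59 FPKM in HuR-FKO libraries, against 1.89, 1.65 and 1.83 FPKM in Ctrl libraries. The 6 tested T cell markers were all higher (median 0.32), and the 16 listed summed to 27.5 to 35.3 FPKM in HuR-FKO libraries and 17.5 to 21.2 FPKM in Ctrl libraries, without overlap. Of these 6, 2 were at an unadjusted p under 0.05, 1 without Ctrl replicate 2 and none in the absence of HuR-FKO replicate 2 or of Ctrl replicate 1 or 3. Cd3e, a chain of the T cell receptor complex, was at 1.76, 1.72 and 1.63 FPKM in HuR-FKO libraries, against 1.16, 1.22 and 0.972 FPKM in Ctrl libraries.

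Constant regions of the T cell receptor were read from the fit over genes of every biotype and were chosen after their values had been seen. Trbc2, of the beta chain, was at 4.95, 7.84 and 4.76 FPKM in HuR-FKO libraries, against 1.78, 1.85 and 1.69 FPKM in Ctrl libraries. Every HuR-FKO pool was more than 2 FPKM above every Ctrl pool, and the log2 fold change was 1.28 (unadjusted p = 0.000520, adjusted p = 0.333 from limma). Trbc1 was at 4.42, 5.89 and 3.81 FPKM in HuR-FKO libraries, against 3.18, 2.60 and 1.73 FPKM in Ctrl libraries. Trac, of the alpha chain, was at 4.93, 4.37 and 4.33 FPKM in HuR-FKO libraries, against 2.901, 1.25 and 2.64 FPKM in Ctrl libraries, without overlap (log2 fold change 0.80). Of the gamma chain, Tcrg-C1 was at 0.494, 0.801 and 0.837 FPKM in HuR-FKO libraries, against 0.661, 1.60 and 1.12 FPKM in Ctrl libraries (log2 fold change -0.30) and Tcrg-C2 at 1.56, 0.280 and 1.28 FPKM in HuR-FKO libraries, against 0.519, 1.08 and 0.502 FPKM in Ctrl libraries (log2 fold change 0.22), and in both the groups overlapped. How far the lymphocyte markers and the interferon genes moved together was not tested.

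Markers of macrophages and of neutrophils and mast cells were mostly lower, and those of dendritic cells mostly higher. Among 24 macrophage markers 19 were lower and 5 higher, with 1 lower and 1 higher at an unadjusted p under 0.05 in limma (3.82% and 3.83% of all genes). Their median of -0.12 was -0.22 without Ctrl replicate 1, -0.19 without HuR-FKO replicate 2, -0.06 without Ctrl replicate 2 and 0.00 without HuR-FKO replicate 1. Itgax, the integrin CD11c of inflammatory macrophages and dendritic cells, was at 2.03, 2.58 and 2.18 FPKM in HuR-FKO libraries, against 1.45, 1.57 and 1.29 FPKM in Ctrl libraries, higher without overlap (log2 fold change 0.42, adjusted p = 0.521). Csf1, the growth factor of macrophages and not one of these markers, was at 18.3, 19.99 and 16.4 FPKM in HuR-FKO libraries, against 27.5, 26.1 and 20.9 FPKM in Ctrl libraries, lower without overlap (log2 fold change -0.42). Of 12 neutrophil and mast cell markers 3 were higher and 9 lower (median -0.27, and -0.09 without Ctrl replicate 2 or HuR-FKO replicate 1). Of 8 tested dendritic cell markers 6 were higher and 2 lower (median 0.12), with Bst2, which interferon also induces, the one at an unadjusted p under 0.05. Of 4 tested B cell markers 2 were higher and 2 lower (median -0.07).

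Blood and vessel genes differed as well. All 7 tested red cell genes were higher, 6 at an unadjusted p under 0.05 (3.83% of all genes), with a median of 0.78 against 0.63 in iWAT. Their sum over 9 listed genes was 4548 to 6080 FPKM in HuR-FKO libraries and 2511 to 3536 FPKM in Ctrl libraries. Hba-a1, an alpha globin, was at 1189.7, 1101 and 1382 FPKM in HuR-FKO libraries, against 574, 690.1 and 839.9 FPKM in Ctrl libraries, without overlap. Of 24 endothelial markers 20 were higher and 4 lower (median 0.16, and 0.10 without Ctrl replicate 1), and Cldn5, a tight junction protein of endothelium, was at 109.7, 91.9 and 110.5 FPKM in HuR-FKO libraries, against 51.3, 75.3 and 82.1 FPKM in Ctrl libraries. Markers of epididymis and testis, tissue that adjoins the depot, summed to 7.34 to 20.7 FPKM in HuR-FKO libraries and 1.84 to 6.36 FPKM in Ctrl libraries over 21 listed genes, of which 16 were under 1 FPKM in every library and 3 at 0 in all. Prm2, a protamine of sperm heads, was listed at 3.75, 4.67 and 0 FPKM in HuR-FKO libraries, against 0, 0 and 0 FPKM in Ctrl libraries. The part of adjoining tissue and of blood in the other differences was not tested.

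**Figure D4:**
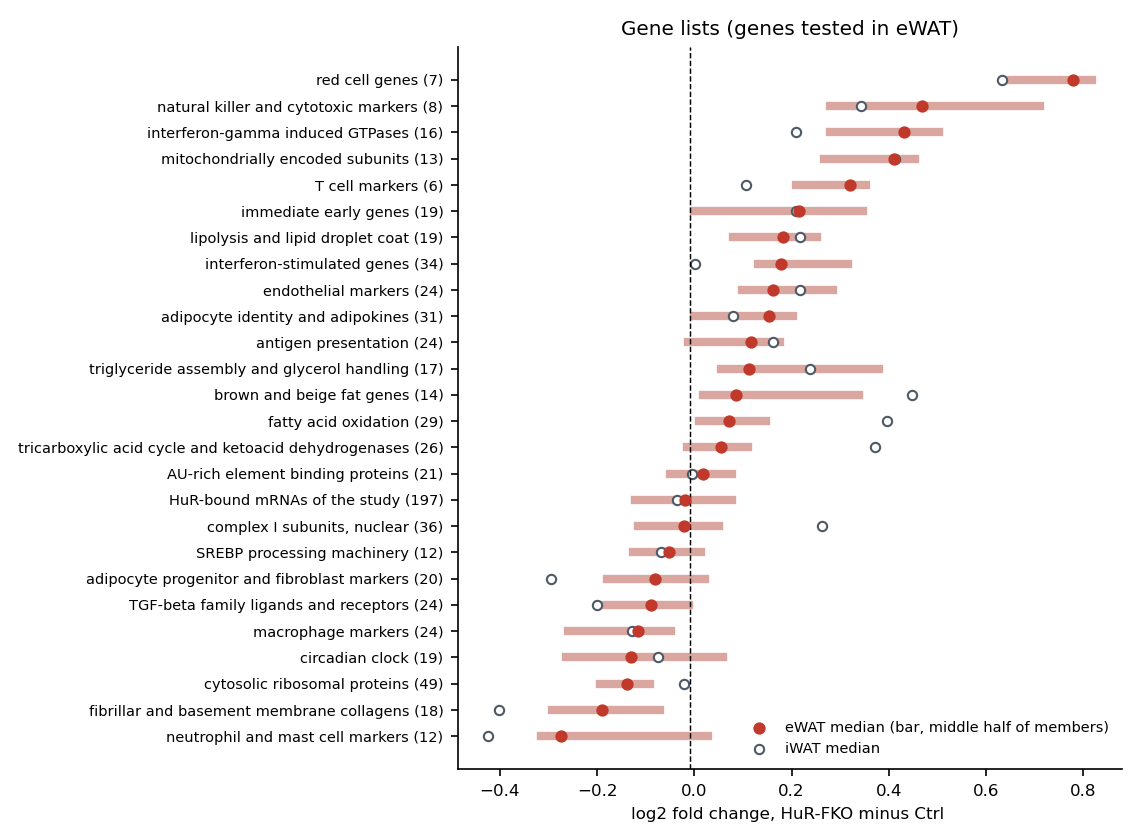
Median log2 fold change (HuR-FKO minus Ctrl, horizontal axis) of 26 gene lists in eWAT (filled red points, with bars over the middle part of the members from the first to the last quartile) and in iWAT (open points), ordered by the eWAT median, with the number of genes tested in eWAT. The lists drawn, a selection, run from -0.27 (neutrophil and mast cell markers) to 0.78 (red cell genes), and the dashed line is the median of all genes tested, -0.01. Lists not drawn include the markers of epididymis and testis (median 0.98 over 4 tested genes). A member high in HuR-FKO libraries alone, such as Prm2, could pass the FPKM minimum, so that median is not read as a result.

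Genes of adipocyte identity went both ways with a small positive median. Of 31 genes 23 were higher and 8 lower. The median of 0.15 was 0.07 without HuR-FKO replicate 1 or Ctrl replicate 1 and 0.08 without HuR-FKO replicate 3. Unadjusted p values under 0.05 were found for 5 higher and 3 lower members, against 3.83% and 3.82% of all genes, and none passed over all genes. Cidea, a lipid droplet protein of brown and beige adipocytes, was at 9.14, 18.8 and 18.7 FPKM in HuR-FKO libraries, against 6.53, 6.22 and 6.60 FPKM in Ctrl libraries. Its HuR-FKO pools lay above a narrow Ctrl range, HuR-FKO replicate 1 closest to it (log2 fold change 1.09, adjusted p = 0.308). Aqp7, the glycerol channel of adipocytes, was at 134, 110.4 and 129 FPKM in HuR-FKO libraries, against 77.7, 92.1 and 91.1 FPKM in Ctrl libraries. Nrg4, a growth factor secreted by brown fat, was at 94.4, 103 and 91.8 FPKM in HuR-FKO libraries, against 83.3, 63.1 and 72.6 FPKM in Ctrl libraries. Acvr1c, the receptor ALK7 that restrains lipolysis, was at 17.7, 11.7 and 18.5 FPKM in HuR-FKO libraries, against 9.23, 10.7 and 8.19 FPKM in Ctrl libraries, again with no overlap.

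The 3 lower members at that p were secreted proteins. Rbp4, the plasma carrier of retinol, was at 428, 456 and 448 FPKM in HuR-FKO libraries, against 654, 513 and 629 FPKM in Ctrl libraries. Retn, resistin, was at 1255, 1524 and 1418 FPKM in HuR-FKO libraries, against 2065, 1771 and 1787 FPKM in Ctrl libraries. Both separated the groups. Lep, the satiety hormone leptin, was at 501, 268 and 203 FPKM in HuR-FKO libraries, against 483, 502 and 459.9 FPKM in Ctrl libraries, so that HuR-FKO replicate 1 lay within the Ctrl range and the other 2 pools far below it. Real-time PCR genes of adipogenesis and lipid in this depot numbered 13 on the list, 9 higher and 4 lower (median 0.09). Of these, Retn and Lep, both lower, were at an unadjusted p under 0.05, where all genes gave 3.82% lower. Of 9 inflammation genes of that PCR 6 passed the FPKM minimum, 5 of them higher and 1 lower (median 0.27). Cxcl9, Cxcl10 and Cd3e were higher at an unadjusted p under 0.05 (3.83% of all genes). Both lists were chosen by the study on this tissue and are not independent evidence.

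Storage and use of lipid showed small shifts. Of 17 genes of triglyceride assembly and glycerol handling 14 were higher (median 0.11, and 0.25 without Ctrl replicate 1), and of 19 genes of lipolysis and the lipid droplet coat 15 were higher (median 0.18, and 0.11 without Ctrl replicate 1 or HuR-FKO replicate 3). Of 22 insulin signalling genes 10 were higher and 12 lower. Grb10, an adaptor that dampens the insulin receptor, was at 13.9, 13.9 and 13.1 FPKM in HuR-FKO libraries, against 17.9, 17.0 and 17.9 FPKM in Ctrl libraries, and Akt2, the main insulin-responsive kinase of fat, was at 152, 132 and 132 FPKM in HuR-FKO libraries, against 124, 107 and 102 FPKM in Ctrl libraries. Grb10 was lower and Akt2 higher, both without overlap (-0.34 and 0.32 on the log2 scale). Outside these lists and picked after their values were seen, Apoe, which carries lipid in lipoproteins, was at 3186, 3649 and 2749.9 FPKM in HuR-FKO libraries, against 4987, 5166 and 5671 FPKM in Ctrl libraries, and Igf1, a growth factor that fat also secretes, was at 157, 151 and 173 FPKM in HuR-FKO libraries, against 108, 121 and 106 FPKM in Ctrl libraries. The groups stood apart for each gene, at log2 fold changes of -0.73 for Apoe and 0.52 for Igf1 (adjusted p = 0.295 and 0.229).

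Mitochondrially encoded subunits were higher, and nuclear genes of complex I were not. The 13 subunits encoded by mitochondrial DNA were all higher in eWAT, 9 without overlap (6.66% of all genes), with a median of 0.41, the same as in iWAT (0.41). Their share of the protein-coding FPKM was 14.2% to 16.8% in HuR-FKO libraries and 12.1% to 13.9% in Ctrl libraries. An unadjusted p under 0.05 was found for 4 of them (3.83% of all genes were higher at that p), 8 without HuR-FKO replicate 2, and 1 without HuR-FKO replicate 1, HuR-FKO replicate 3 or Ctrl replicate 3. mt-Nd3 was at 4477, 4796 and 4224 FPKM in HuR-FKO libraries, against 3069, 3383 and 3288 FPKM in Ctrl libraries, and mt-Nd1 at 5091, 4272 and 4798 FPKM in HuR-FKO libraries, against 3826, 3405 and 3239.7 FPKM in Ctrl libraries, both complex I subunits whose groups did not overlap. Nuclear genes of the same complex did not move with them: of 36 complex I subunits 14 were higher and 22 lower in eWAT, with a median of -0.02, while all 36 were higher in iWAT, with a median of 0.26. Other nuclear lists leaned higher in eWAT by small amounts. Of 34 subunits of complexes III, IV and V, 20 were higher (median 0.02). Of 26 genes of the tricarboxylic acid cycle and ketoacid dehydrogenases, 19 were higher (median 0.05).

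Whether the effect of genotype differed between eWAT and iWAT was tested as an interaction over 12 libraries and 13084 genes. By limma's adjusted p, 1 gene (0.00764%) passed the threshold of 0.05, with a lower effect in eWAT. The eWAT effect was lower for 1.38% and higher for 1.86% of genes at an unadjusted p under 0.05, or 3.24% in either direction. The gene called was Elovl3, an elongase of very long chain fatty acids typical of brown fat. The call was lost without eWAT Ctrl replicate 2 or iWAT HuR-FKO replicate 2, with a pseudocount of 0.1 and after scaling to the nuclear protein-coding sum. In eWAT Elovl3 was near the limit of detection, at 0, 0.303 and 0.200 against 0.0428, 0.134 and 0 FPKM (HuR-FKO against Ctrl). In iWAT it was at 10.4, 14.2 and 15.8 FPKM in HuR-FKO libraries, against 1.83, 1.24 and 1.88 FPKM in Ctrl libraries. Elovl3 passed the FPKM minimum through iWAT only, so the call rests on the iWAT effect.

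Among genes of fatty acid oxidation 26 of 30 had a negative interaction, 13 of them at an unadjusted p under 0.05, with a median of -0.31 against 0.03 over all genes. Over all 13084 genes 5576 had a negative interaction, and 1.38% were lower at that p. Without any 1 of the 12 libraries 10 to 14 of the fatty acid oxidation genes stayed at that p. In eWAT 23 of 29 members were higher, but with a median of only 0.07, against 0.40 in iWAT. Cpt1b, the form of the mitochondrial gatekeeper of fatty acids found in muscle and brown fat, was at 2.11, 2.63 and 2.45 FPKM in HuR-FKO libraries, against 2.18, 1.18 and 1.31 FPKM in Ctrl libraries in eWAT. In iWAT it was at 51.5, 66.6 and 35.9 FPKM in HuR-FKO libraries, against 15.7, 13.9 and 18.6 FPKM in Ctrl libraries. The effects differed by -1.15 (unadjusted p = 0.00194). Acadvl, the first dehydrogenase of long-chain oxidation, was at 104, 121 and 112 FPKM in HuR-FKO libraries, against 119, 109 and 109 FPKM in Ctrl libraries in eWAT. In iWAT it was at 327, 364 and 245 FPKM in HuR-FKO libraries, against 198, 142 and 175 FPKM in Ctrl libraries, so that the groups overlapped in eWAT and separated in iWAT (interaction -0.86, unadjusted p = 0.00164). Complex I genes all had a negative interaction with a median of -0.29, and 9 of 36 had an unadjusted p under 0.05, against 1.38% of all genes. That count was 19 without eWAT HuR-FKO replicate 2, 17 without iWAT HuR-FKO replicate 3, 2 without eWAT HuR-FKO replicate 3, 1 without eWAT Ctrl replicate 1, eWAT Ctrl replicate 3 or eWAT HuR-FKO replicate 1, and 0 without iWAT Ctrl replicate 2, iWAT HuR-FKO replicate 1 or iWAT HuR-FKO replicate 2.

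**Figure D5:**
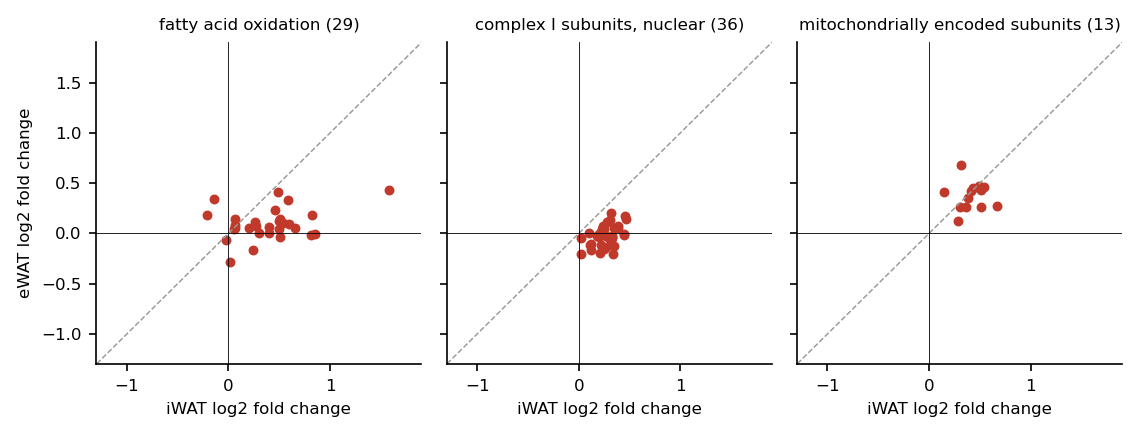
Log2 fold change (HuR-FKO minus Ctrl) of each gene in eWAT (vertical axis) against that in iWAT (horizontal axis) for 29 genes of fatty acid oxidation, 36 nuclear complex I subunits and 13 mitochondrially encoded subunits, each point a gene and the dashed line equality. The medians are 0.07 against 0.40, -0.02 against 0.26 and 0.41 against 0.41.

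Lower groups included the matrix. Of 18 collagen genes 14 were lower, 4 of them at an unadjusted p under 0.05, where all genes gave 3.82%, with a median of -0.19 against -0.40 in iWAT. Without Ctrl replicate 2, 2 were at that p, and the median was -0.30 without HuR-FKO replicate 1 and -0.11 without HuR-FKO replicate 3. Col18a1, a basement membrane collagen, was at 36.6, 31.3 and 33.1 FPKM in HuR-FKO libraries, against 50.4, 48.0 and 43.2 FPKM in Ctrl libraries, and Col6a1, of the microfibrils around adipocytes, at 77.9, 70.8 and 68.2 FPKM in HuR-FKO libraries, against 97.7, 92.4 and 88.2 FPKM in Ctrl libraries. Neither overlapped. Of 24 TGF-beta family ligands and receptors 18 were lower, Tgfb3 the one of smallest p, at 10.8, 12.0 and 10.1 FPKM in HuR-FKO libraries, against 13.6, 19.1 and 18.8 FPKM in Ctrl libraries. The complement gene C4b, picked after its value was seen, was at 132, 121 and 112 FPKM in HuR-FKO libraries, against 164, 206 and 175 FPKM in Ctrl libraries (log2 fold change -0.57).

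Of 49 cytosolic ribosomal protein genes 46 were lower by small amounts, with a median of -0.14 against -0.02 in iWAT. Only 2 were at an unadjusted p under 0.05, where all genes gave 3.82% lower. Among them was Rps2, at 324, 366 and 312 FPKM in HuR-FKO libraries, against 399, 391.6 and 407 FPKM in Ctrl libraries. Without HuR-FKO replicate 2 all 49 were lower, 17 at that p and with a median of -0.25. None was at that p without HuR-FKO replicate 1, HuR-FKO replicate 3 or either of Ctrl replicates 2 and 3, and the median was -0.08 without Ctrl replicate 3 or HuR-FKO replicate 3. Of 19 circadian clock genes 13 were lower (median -0.13, -0.21 without Ctrl replicate 3, -0.02 without Ctrl replicate 1 and -0.05 without HuR-FKO replicate 3). Of these, 5 were at an unadjusted p under 0.05 (3.82% of all genes were lower at that p). The count was 2 without Ctrl replicate 3 and 3 without Ctrl replicate 1 or HuR-FKO replicate 2. Usp2, a clock-controlled ubiquitin protease, was at 12.0, 16.6 and 18.5 FPKM in HuR-FKO libraries, against 24.7, 22.1 and 26.8 FPKM in Ctrl libraries. Nfil3, a repressor of clock output, was at 4.19, 5.90 and 5.16 FPKM in HuR-FKO libraries, against 8.83, 5.99 and 9.19 FPKM in Ctrl libraries. HuR-FKO pools were below Ctrl pools in both. The time of day of collection is not given in the sources used here.

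Noncoding genes were read from a fit over every biotype. Of 1336 tested, limma's adjusted p called 2 that rose and 2 that fell (0.15% each way), a count of 4 that was 8 to 12 without any 1 of the 6 libraries. Unadjusted p values under 0.05 were found for 59 that were higher (4.42%) and 54 that were lower (4.04%), or 8.46% in either direction. All 4 calls were short RNAs, mt-Tc, Snord14a, Gm25690 and Gm24856, listed at 0 in every library of one group. Short RNAs are poorly quantified as FPKM from libraries of this kind, so no fold is given. Longer noncoding genes had smaller, steadier differences that did not pass over all genes. The lincRNA 1810012K08Rik was at 7.27, 7.49 and 5.17 FPKM in HuR-FKO libraries, against 14.5, 12.5 and 13.4 FPKM in Ctrl libraries, and A730085K08Rik, annotated as antisense, at 15.5, 14.8 and 12.9 FPKM in HuR-FKO libraries, against 30.8, 24.95 and 23.2 FPKM in Ctrl libraries. Both were lower without overlap. Airn, the imprinted antisense transcript that silences Igf2r in mouse, was at 5.32, 5.30 and 4.96 FPKM in HuR-FKO libraries, against 3.09, 3.66 and 2.99 FPKM in Ctrl libraries, and the lincRNA 1700020I14Rik at 25.3, 23.8 and 21.1 FPKM in HuR-FKO libraries, against 15.7, 16.9 and 13.9 FPKM in Ctrl libraries. Both were higher without overlap (log2 fold changes 0.55 and 0.57).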

How the data were processed

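Per the labels and the paper's methods, total RNA from 12-week-old mice, pooled from 3 mice per library, was made into strand-specific libraries and sequenced in paired ends. The authors aligned the reads to mm10 with TopHat2 2.0.11 and deposited FPKM per gene and library from Cufflinks 2.1.1. The annotation release and any further scaling between libraries are not given in the sources used here. FPKM holds no read counts, so no count test was used. Gene types and positions came from GENCODE vM21, which holds 36464 of the 38371 gene IDs.

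The test, applied to log2(FPKM + 1) wherever either group averaged more than 1 FPKM, was limma 3.58.1 under R 4.3.3 (two-sided, eBayes trend on, Benjamini-Hochberg adjustment, threshold 0.05). An exact permutation test of 3 against 3 libraries was not used, since it cannot reach that threshold. Lists are described by counts and medians. The lists, written from general knowledge apart from the study's HuR-bound mRNAs and real-time PCR genes, and the members named were chosen with earlier results of these data known. Named were Elavl1 and genes that bind AU-rich elements, genes past the threshold, the 15 higher and 15 lower protein-coding genes of smallest p (at least 5 FPKM in either group, no overlap, no Gm-numbered or Rik symbol), the first and the smallest-p genes of each list, genes of the study's real-time PCR, and the smallest p among noncoding genes and in the interaction; others are said to be chosen after their values were seen. The procedure was tested on simulated data. The depth estimate used low values of transcripts of 3000 bases or more and took 200 bases as the fragment length. Alternatives were a pseudocount of 0.1, no minimum, median-ratio scaling, scaling to the nuclear protein-coding sum, every biotype, a replicate block, 1 fit of all 16 libraries, eBayes without a trend, and leaving out each library.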

Additional observations from a re-analysis of the deposited data

Results flagged for a closer look

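Elovl3 stood out because it was the 1 gene past the threshold in the test of the difference between the effects in 2 depots. The eWAT effect minus the iWAT effect was -2.30 on the log2 scale (interaction over 12 libraries, limma, adjusted p = 0.00895). HuR-FKO libraries were at 0, 0.303 and 0.200 FPKM in eWAT and at 10.4, 14.2 and 15.8 FPKM in iWAT, and Ctrl libraries at 0.0428, 0.134 and 0 FPKM in eWAT and at 1.83, 1.24 and 1.88 FPKM in iWAT. In eWAT the values are too low for a direction to be read. Elovl3 passed the FPKM minimum through iWAT only, so the difference rests on the iWAT effect. It does not show that eWAT, where the gene was barely detected, responded differently. The call was lost with a pseudocount of 0.1.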

How the results depend on the processing

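The number of genes past the threshold of limma in eWAT depended on how the spread was estimated. Against 5 genes, a fit over all 16 libraries gave 28 genes, eBayes without a trend gave 3, testing without a minimum of FPKM gave 2, and leaving out each library gave 1 to 6. At an unadjusted p under 0.05 the count was 902 to 1197 under the alternatives that keep every library and 685 to 1120 without 1 library, against 943. Noncoding calls were 8 to 12 without 1 library, against 4. The single call of the interaction with iWAT became 5 over genes of every biotype and 3 without a minimum, 0 with a pseudocount of 0.1 and 0 after scaling to the nuclear protein-coding sum, and 0 to 2 without 1 library. It was 0 without eWAT Ctrl replicate 2 or iWAT HuR-FKO replicate 2. With the replicate number as a block, 0 protein-coding genes (1042 at an unadjusted p under 0.05), 0 noncoding genes (108) and 0 interactions (545) passed the test of limma. The labels do not say whether the numbers pair the samples. Deviations of same-numbered HuR-FKO and Ctrl libraries correlated at 0.25, -0.27 and -0.08 across genes. Under other numbers, HuR-FKO replicate 2 correlated with Ctrl replicate 3 at 0.27, and HuR-FKO replicate 3 with Ctrl replicate 2 at 0.34. The remaining pairs were at -0.23 to -0.003. Whether libraries of the 2 genotypes shared a batch or litter was not tested. Elavl1 stayed at log2 fold changes of 0.04 to 0.14 without 1 library. Of 76 results for single genes 0 turned direction under any of the alternatives run, and of 59 lists 16 had a median that moved by more than the spread between libraries in at least 1 alternative. The low FPKM of many immune genes and a depth known only roughly limit what these 6 pools can show.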
